A study of Homo sapiens with 2 samples.

Results

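Circular RNAs (circRNAs) whose host genes encode chromatin remodellers or histone modifiers were read out in SW620, an established human colorectal cancer cell line. A circRNA was taken when a host name in the deposited table began with ARID, ASXL, BRD, CHD, EHMT, HDAC, KDM, KMT, MLL, PHF, SETD or SMARC and continued as those gene names do, or was AFF1, BPTF, CDYL or CREBBP. This gave 47 of the 1485 circRNAs, from 29 host names, with none named MLL. Of the 47, 45 were listed in the library of cells given HD-SB, a Hedyotis diffusa-Sculellaria barbata preparation, at 1 mg/mL for 24 h, and 4 in the library of control cells, for which the labels give no further treatment. Each group is 1 library of 1 cell line, so values have no replicate error, and what differs between libraries was not tested as an effect of HD-SB. SMARCA5, EHMT1, HDAC4, CDYL, PHF21A and AFF1, the genes given to mark the group, were all among the hosts. Markers of SW620 identity were not tested.

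DNA in the nucleus is wrapped on histones, and remodellers use ATP to move or evict these nucleosomes. Writers add methyl or acetyl groups to histone tails, erasers take them off, and readers bind the marks and bring other proteins. A circRNA forms when the spliceosome joins the end of an exon back to the start of the same or an earlier exon of the pre-mRNA. The read that crosses this back-splice junction is what was counted, so a count does not grow with the length of the circle. A count of such reads measures the circle and not the mRNA or protein of its host.

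The HD-SB library held 11570 back-splice reads on 1475 circRNAs and the control library 91 reads on 32, and the fewest reads of a listed circRNA was 2 in both. A circRNA that is not listed was therefore taken to have 0 or 1 read, though other filters of the caller, which is not given, could also have left it out. A control count of 1 allows a share of up to 5.97% of reads (upper exact limit), so the absence of nearly every chromatin host circle from the control list was not detectable as a difference at this depth. Shares carry exact 95% Clopper-Pearson intervals, which cover only counting error, as amplification can copy a molecule. Positions are those of the table, with no genome build.

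To show which exons the circles hold, the span of each circle, its end minus its start plus 1, was matched to the distance from an exon start to an exon end in the GENCODE 29 models (GRCh38) of its host. A single pair of exon ends had exactly that distance for 45 of the 47 (95.7%), against 1247 of the 1438 other circRNAs (86.7%). In each of the 9 chromatin hosts with 2 or more matched circles, all circles lay at 1 common offset from the GRCh38 models, and for none was the offset 0. The table's positions are therefore not those of these models, and exons were read through the span alone. Junction reads do not show the inside of a circle, so the exons between its ends were taken from the model. The circles of ARID1B that spans 15551 bp and of EHMT1 that spans 740 bp matched no exon pair.

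The sequences of the circles on which the results turn are shown next. The SMARCA5 circle, the most abundant of the group, joins the end of exon 16 to the start of exon 15 of SMARCA5-201 (GRCh38, chr4:143543509-143543972, plus strand) and is 269 nt long once its intron is taken out. It is printed whole from the first base of exon 15, with the 15 bases on each side of the back-splice in capitals.
SMARCA5: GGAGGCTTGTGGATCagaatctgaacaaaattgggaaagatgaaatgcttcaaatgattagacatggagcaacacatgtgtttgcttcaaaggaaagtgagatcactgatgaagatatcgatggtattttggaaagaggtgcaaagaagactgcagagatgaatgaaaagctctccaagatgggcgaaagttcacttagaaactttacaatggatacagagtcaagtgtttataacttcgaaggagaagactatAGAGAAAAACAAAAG

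The junctions of the 4 circles with control reads identify them. Each has the last 15 bases of the circle in lower case and the first 15 in capitals, read in the sense of the gene. The GRCh38 spans are chr4:87046166-87047594 (plus strand) for AFF1, chr6:4891713-4892379 (plus) for CDYL, chr11:46076754-46092223 (minus) for PHF21A and chr2:239139684-239163923 (minus) for HDAC4.
AFF1 exons 2 to 3: tctcagtcagttgagTTTGTACAATGACGA
CDYL exon 2: ctgttaacgggaaagGTTGAAAGGATTGTT
PHF21A exons 2 to 5: ttgagtgagaaacagGGGGCTAGAGAGCTG
HDAC4 exons 6 to 9: agcatcccggcggagGTGCCGTGGCCAGCA

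Circles of the same gene can share a splice site, which shows as equal letters on one side of the junction. In HDAC4, 2 further circles opened with exon 6, at chr2:239144583-239163923 and chr2:239134245-239163923 in GRCh38, and had the same capitals as the control circle above. ASXL1 circles shared their acceptor (chr20:32366384-32369123 and chr20:32366384-32371874, plus strand), and ASXL2 circles shared their donor (chr2:25799385-25806337 and chr2:25799385-25845563, minus strand). The exon 2 starts of ASXL1 and its paralog ASXL2, both used as acceptors here, were identical at 13 of 15 bases.
HDAC4 exons 6 to 8: cgttggatgtcacagGTGCCGTGGCCAGCA
HDAC4 exons 6 to 11: cacccctcgtcacagGTGCCGTGGCCAGCA
ASXL1 exons 2 to 4: cttttcacgctcaagGTATTAGAAAACTAC
ASXL1 from the same start to a later exon: tgggatggattacagGTATTAGAAAACTAC
ASXL2 exons 4 to 5: ggtggaaaaggaaagTGGGACTTCTCCTCT
ASXL2 exons 2 to 5: ggtggaaaaggaaagGTCTTAGAAAAATAC

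The chromatin host circles held 327 of the 11570 HD-SB reads, or 2.83% (2.53 to 3.14). Their reads were concentrated in SMARCA5, which had 88 of the 327 (26.9%), and the other 44 listed circles had at most 19 reads each, with a median of 4. The median of the other 1430 circRNAs listed in HD-SB was 5. The group had 11 circles at exactly 2 reads, the fewest that could be listed (24.4% of 45), against 203 of 1430 (14.2%) outside it. Circles of at least 10 reads numbered 6, or 13.3%, against 17.1% outside it. No test of these differences was made with 1 library per group.

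**Figure D1:**
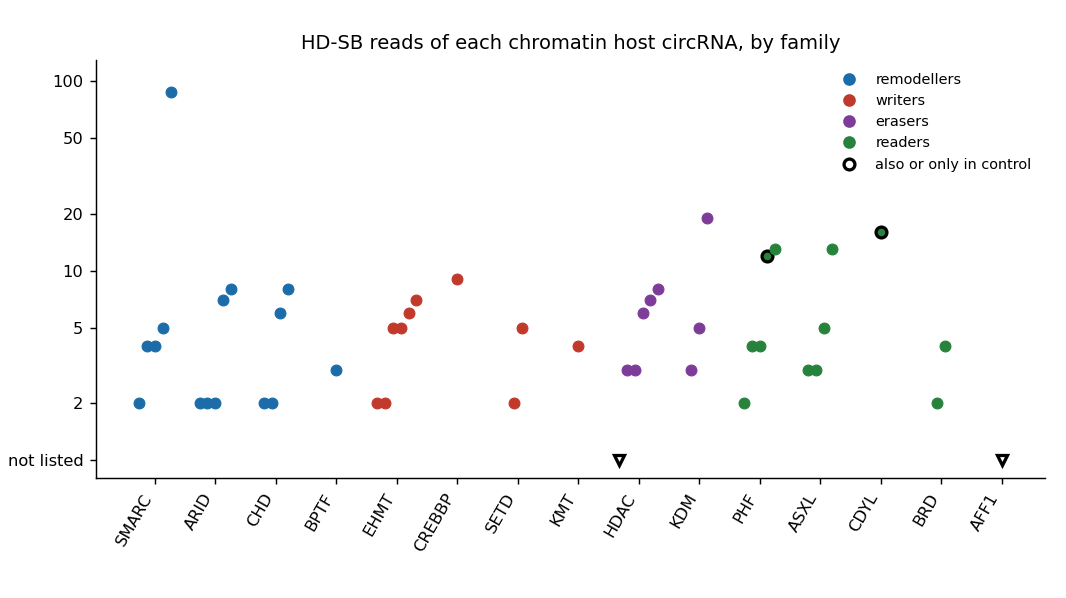
Back-splice reads in the HD-SB library (log axis) of each of the 47 chromatin host circRNAs, 1 point per circRNA, by family and coloured by class. Black outlines mark the 4 circRNAs listed in the control and triangles the 2 of these not listed in HD-SB. SMARCA5 stands at 88 reads, and every other circle is at 19 or below.

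Remodellers gave 15 circles from 10 host names and 145 HD-SB reads, 1.25% of the library (1.06 to 1.47). The control lists none of these 15 circles. Classes follow gene name prefixes, so this one includes 10 reads of ARID4B, a Sin3 corepressor subunit. Of those, 8 are on a circle that RBM34 may host. SMARCA5 encodes the ATPase of the ISWI remodelling complexes, and its circle (hsa_circ_0001445, chromosome 4, 144464662 to 144465125, span 464 bp) ranked 12th of the 1475 listed circRNAs with 7606 CPM, 0.761% of reads (0.610 to 0.936). CPM here is back-splice reads per 1000000 listed in the library. Without it the class fell to 0.493% and the whole group to 2.07%. The SMARCA5 circle was not listed in the control, where its HD-SB share would give fewer reads than the 2 needed for listing. Subunits of the BAF (SWI/SNF) remodeller were far lower. The scaffold SMARCC1 gave 3 circles on chromosome 3, of 5 reads (47719688 to 47727660), 4 reads (47747899 to 47755980) and 4 reads (47712148 to 47718272), and the core subunit SMARCB1 gave 1 of 2 reads (chromosome 22, 24158957 to 24167602).

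The ARID genes encode DNA-binding subunits, of BAF for ARID1B and of the related PBAF complex for ARID2, while ARID4B belongs to the Sin3 corepressor. ARID1B had a circle of 7 reads over 48071 bp (hsa_circ_0001658, chromosome 6, 157357969 to 157406039) and another of 2 reads (157135005 to 157150555), and both rows also carry small-RNA host names. ARID2 had 1 circle of 2 reads (chromosome 12, 46205201 to 46215270). The ARID4B circle with more reads, 8 (hsa_circ_0017041, chromosome 1, 235316021 to 235318427), carries RBM34 as its first host name. Its exon pair lies in RBM34 and in a transcript model of ARID4B that reaches those exons, so its host cannot be told apart. The other ARID4B circle had 2 reads (235416045 to 235424067).

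Chromodomain helicases gave 4 circles. CHD2 had 8 reads on exons 3 to 5 (hsa_circ_0007262, chromosome 15, 93467551 to 93472321) and 6 reads on exons 29 to 31 (hsa_circ_0000655, 93540187 to 93541851), far apart in a transcript of 39 exons. CHD6 (chromosome 20, 40141485 to 40143591) and CHD9 (chromosome 16, 53269097 to 53272498) had 2 reads each. BPTF, the largest subunit of the NURF remodeller, had 3 reads (chromosome 17, 65941525 to 65972074) on a circle of 8 exons and 2200 nt, the longest of the group after splicing.

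Writers gave 10 circles, 47 HD-SB reads, 0.406% (0.299 to 0.540), and the control listed none of them. EHMT1, which methylates histone H3 together with its partner EHMT2, gave 6 of them, the most of any chromatin host, and 27 reads. No EHMT1 circle dominated. On chromosome 9 they had 7 reads (140646783 to 140652463), 6 reads (140705913 to 140712590), 5 reads (140611078 to 140611634), 5 reads (140622801 to 140638542), 2 reads (140669561 to 140676849) and 2 reads (140728801 to 140729540). The acetyltransferase CREBBP had 9 reads on a circle of its exon 2 alone (hsa_circ_0007637, chromosome 16, 3900298 to 3901010, 713 nt). SETD2, the methyltransferase that acts behind elongating RNA polymerase, had 5 reads (chromosome 3, 47127685 to 47139571) and 2 reads (47079156 to 47088111). The methyltransferase KMT2C had 4 reads (chromosome 7, 151960101 to 151962294).

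Erasers gave 9 circles, 54 HD-SB reads, 0.467% (0.351 to 0.609), and 2 control reads. KDM1A, a demethylase of the CoREST corepressor, had the most, 19 reads on exons 2 to 3 (hsa_circ_0009061, chromosome 1, 23356962 to 23377013), and was the second most abundant circle of the group. KDM8 had 5 reads (chromosome 16, 27224906 to 27226329) and the demethylase KDM4B had 3 (chromosome 19, 5071021 to 5082515). The deacetylase HDAC4, a repressor that shuttles between cytoplasm and nucleus, gave 5 circles on chromosome 2, of which 4 were listed in HD-SB with 24 reads. These had 8 reads (240098109 to 240158360), 7 reads (240078348 to 240098259), 6 reads (240066279 to 240085619) and 3 reads (240055941 to 240085619). The fifth (240061380 to 240085619) had 2 reads in the control and was not listed in HD-SB. HDAC9, of the same deacetylase class, had 3 reads on a circle of 1 exon and 264 nt (chromosome 7, 18705836 to 18706099), the shortest span of the group.

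Readers and chromatin-linked cofactors gave 13 circles, 81 HD-SB reads, 0.700% (0.556 to 0.869), and 8 control reads. CDYL, a chromodomain corepressor, had 16 HD-SB reads on its exon 2 (hsa_circ_0008285, chromosome 6, 4891947 to 4892613) and 3 control reads. PHF21A, a subunit of the CoREST complex that contains KDM1A, had 12 and 2 reads (hsa_circ_0000296, chromosome 11, 46098305 to 46113774). PHF14 had 13 HD-SB reads over 49677 bp (hsa_circ_0079440, chromosome 7, 11101418 to 11151094). PHF20 (chromosome 20, 34430495 to 34446303) and PHF15 (chromosome 5, 133871548 to 133887899) had 4 each, and PHF17 had 2 (chromosome 4, 129752888 to 129767687). PHF15 and PHF17 are older symbols of JADE2 and JADE1, scaffolds of a histone acetyltransferase complex. BRD1, a scaffold of the same kind, gave 4 reads (chromosome 22, 50169239 to 50171461) and 2 reads (50181038 to 50187942).

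ASXL1 and ASXL2, partners of the histone H2A deubiquitinase BAP1, gave 2 circles each. ASXL2 had 13 reads (chromosome 2, 26022254 to 26029206) and 3 reads (26022254 to 26068432), so 81.3% of its reads fell on the shorter circle. ASXL1 had 5 reads (chromosome 20, 30954187 to 30959677) and 3 reads (30954187 to 30956926). AFF1, a scaffold of the super elongation complex, had 3 control reads (hsa_circ_0001423, chromosome 4, 87967318 to 87968746) and was not listed in HD-SB.

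Hosts with several circles used their exons in different ways. The 5 matched EHMT1 circles held exons 3, 4 to 6, 7 to 9, 11 to 15 and 19 to 25 of 27, so that none of their 10 pairs overlapped and 2 pairs abutted. The 5 HDAC4 circles held exons 3 to 5, 5 to 7, 6 to 8, 6 to 9 and 6 to 11 of 27, and 7 of their 10 pairs overlapped. The HDAC4 circles all lay within exons 3 to 11, while those of EHMT1 were spread along the transcript. SMARCC1 (exons 8 to 10, 14 to 16 and 17 to 19 of 28), BRD1 (6 to 7 and 8 to 11 of 12), CHD2 and SETD2 (9 to 11 and 16 to 18 of 21) had no overlapping pair. Over the 8 chromatin hosts with 2 or more matched circles of their own, 9 of 28 pairs overlapped (32.1%), against 192 of 361 pairs (53.2%) in 178 other hosts. HDAC4 gave 7 of the 9, ASXL1 and ASXL2 the rest. Pairs of 1 gene are not independent, and no test was made.

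**Figure D2:**
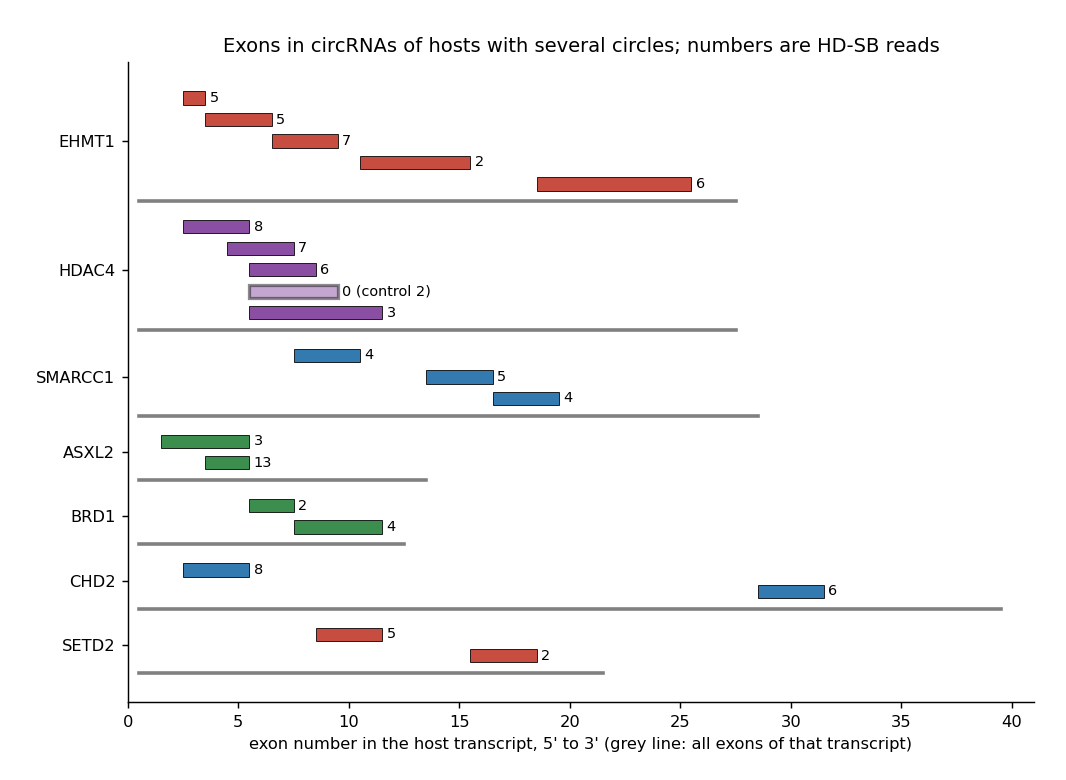
Exons held by each matched circRNA of 7 chromatin hosts with several circles, by exon number in the host transcript from 5′ to 3′. Each bar is a circRNA with its HD-SB reads beside it, the pale bar with a thick outline is the HDAC4 circRNA with 2 control reads, and grey lines run over all exons of the transcript. EHMT1 circles do not overlap, and 7 of 10 HDAC4 pairs do.

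The matched chromatin host circles held a median of 3 exons (1 to 8) and 348 nt (195 to 2200), against 3 exons and 371 nt in the other matched circRNAs. None contained exon 1 or the last exon of the model used, and 10 of 45 (22.2%) began with exon 2, against 32.2% outside the group. In the readers class 7 of 13 began with exon 2, in the remaining classes 1 each. The circles lay wholly in coding sequence for 40 of 45 (88.9%) and for 81.4% of the others in coding models. The matched ARID1B circle and the ARID4B circle that RBM34 may host held 0 coding bases in the models used. A start codon lay inside 8.89% of the chromatin host circles and 16.4% of the others in coding models. The 4 circles with a start codon were those of PHF21A, PHF15, PHF17 and, in a minor transcript model, ASXL1. Single-exon circles were those of CDYL, CREBBP, HDAC9 and 1 of EHMT1.

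On the genome the chromatin host circles spanned a median of 7973 bp (264 to 60252), against 4059 bp in all other circRNAs, and 19 of 47 (40.4%) spanned at least 10000 bp, against 28.8%. The genes themselves were longer, with medians of 178408 bp for the matched chromatin hosts and 78374 bp for the others, counted per gene. The models matched to circles had a median of 24 and 15 exons, counted per circle, so a host with several circles counts several times. The part of host length in the wider spans was not tested. Erasers had the widest spans, with a median of 19912 bp, set by HDAC4, and of the families with several circles CHD had the lowest median, 2754.5 bp. Weighted by HD-SB reads the median span of the group was 4771 bp, and SMARCA5 spans only 464 bp. Of the 9 circles with no circBase identifier (a public circRNA catalogue), 8 spanned at least 10000 bp and 4 came from HDAC4. Outside the group, 101 of 353 circRNAs with no identifier (28.6%) spanned as much.

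**Figure D3:**
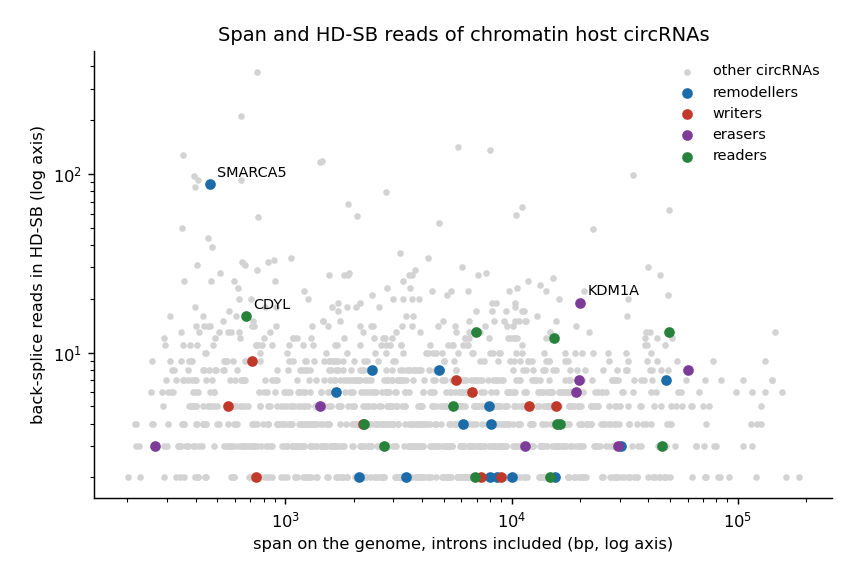
Genomic span with introns (bp, log axis) against back-splice reads in HD-SB (log axis), with chromatin host circRNAs coloured by class and all other listed circRNAs in grey. SMARCA5 is short and abundant at 464 bp and 88 reads, and KDM1A has 19 reads at 20052 bp.

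AFF1, BPTF, CDYL and CREBBP are in the rule by name, and each has a circRNA in the table. Without these 4, 23 of the 113 protein-coding genes of GENCODE 29 whose current symbol meets the rule gave a circRNA (20.4%), and 1098 of all 19931 protein-coding genes did (5.51%). The families were themselves chosen with the hosts known, so nothing is read from this difference. The shares were 2 of 3 for ASXL, 1 of 2 for EHMT, 3 of 10 for ARID and CHD, 3 of 13 for SMARC, 2 of 11 for HDAC, 3 of 19 for PHF, 3 of 20 for KDM, 1 of 8 for BRD and KMT, and 1 of 9 for SETD. Gene length and expression of these hosts were not matched to other genes.

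The comparison of treated with control cells asks which circles differ after HD-SB. In the control, the chromatin host circles held 10 of 91 reads, 10.99% (5.40 to 19.3), 3.89 times their HD-SB share (1.85 to 7.24, conditional on the reads of both libraries). The 10 reads were 3 each of AFF1 and CDYL and 2 each of PHF21A and HDAC4. AFF1 and CDYL are in the rule by name, and the members were chosen with earlier results of these data known. Nothing is therefore read from the ratio or its interval. This ratio compares listed reads alone, and a circle at the group's median of 4 HD-SB reads would have well under 1 read at the control depth. With 1 read given to every circRNA not listed in a library, the control share was 3.43% and the HD-SB share 2.84%. By number of listed circRNAs the shares were 4 of 32 (12.5%) and 45 of 1475 (3.05%). No interval is given for these, as circRNAs of 1 library are not replicates and listing depends on depth.

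**Figure D4:**
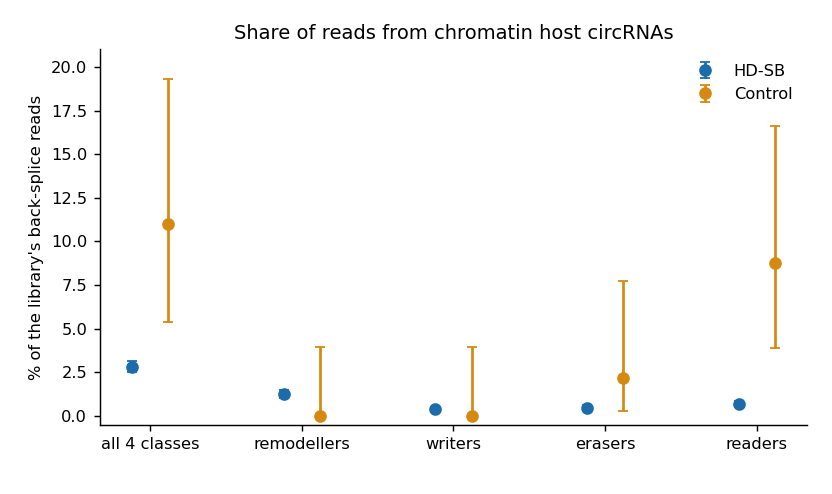
Percent of each library's back-splice reads held by chromatin host circRNAs, together and by class, with exact 95% Clopper-Pearson intervals as bars. Shares are of listed reads, and control intervals are wide because the library has 91 reads. The control reads lie in the readers, a class that includes chromatin-linked cofactors (8 reads, 3 of them AFF1), and in the erasers (2 reads).

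The CDYL circle took 3.30% of the control library (0.685 to 9.33) and 0.138% of the HD-SB library (0.0791 to 0.224), a 23.8-fold larger control share (4.45 to 83.3). PHF21A took 2.20% (0.267 to 7.71) and 0.104% (0.0536 to 0.181), a 21.2-fold larger share (2.30 to 95.2). Both folds are conditional on listing, since 2 reads, the fewest listed, are already 2.20% of the control library, above the HD-SB share of every chromatin host circle. They are therefore no evidence of a fall under HD-SB. Their log2 ratios were -4.41 and -4.19, and 0.041 and 0.18 under median-ratio scaling, whose factor of 0.0406 on control values is set by the circRNAs of both libraries, these included. AFF1 and the HDAC4 circle were not listed in HD-SB, and 1 read there would allow a share of up to 0.0481%. With 3 and 2 control reads no fold is given. The fifth HDAC4 circle differs from its neighbours with the same acceptor, listed in HD-SB at 6 and 3 reads, in its donor exon.

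On the scale log2((HD-SB + 172.861)/(control + 172.861)) in CPM, over circRNAs whose mean level reached 216 CPM, 24 chromatin host circles remained. Of these, 20 had an HD-SB value at least 2-fold higher, where 96% of all 797 circRNAs were, and 4 at least 2-fold lower, where 4.02% of all were. The 4 were those with control reads and the 20 those without, as the pseudocount fixes for a circRNA listed in a single library. Their median log2 ratio was 2, against 2.17 over all 797. The count higher was 43 with no filter, 8 with a stricter filter and 5 with a pseudocount 4 times larger. The count lower was 2 under median-ratio scaling. The share over all circRNAs is not given for these settings, so nothing about the group is read from the changed counts.

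A wider list of 221 chromatin gene names gave 57 further circles from 40 hosts. They held 585 HD-SB reads, a share of 5.06% (4.66 to 5.47). Some names are older and current symbols of the same gene, and JADE1 and JADE2 are in the group as PHF17 and PHF15. None of the 57 was listed in the control. ATXN7, a subunit of the SAGA coactivator, led with 211 reads (chromosome 3, 63898264 to 63898901), followed by the methyltransferase DOT1L with 34 (chromosome 19, 2213538 to 2214595), MLLT1 with 30 (chromosome 19, 6230581 to 6270770), CDYL2, the paralog of CDYL, with 25 (chromosome 16, 80718435 to 80719026), and KANSL2 with 15 (chromosome 12, 49053688 to 49054402). Without that ATXN7 circle the list held 374 reads, or 3.23% (2.92 to 3.57). Of the 57, 30 passed the filter on mean level, and the HD-SB value was at least 2-fold higher for all 30, where 96% of all circRNAs were. The pseudocount fixes this for circles with no listed control read.

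The title of the series names hsa-miR-204-5p, a microRNA that pairs with its targets through its seed, bases 2 to 8, in capitals here.
hsa-miR-204-5p: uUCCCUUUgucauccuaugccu
The complement of the seed, AAAGGGA, was searched on the sense strand of each matched circle, read round the junction, with sequences from GENCODE 29 and RefSeq. It occurred in 3 of 45 chromatin host circles (6.67%) and 56 of 1247 others (4.49%), or 0.148 and 0.114 matches per kb. The 3 were SMARCA5, CDYL and AFF1, with 1 match each, shown in capitals with 8 bases on either side.
SMARCA5: gaaaaacaAAAGGGAggcttgtg
CDYL: aaaataaaAAAGGGAagacagag
AFF1: ttcctgacAAAGGGAgcagcatt
In SMARCA5 the match starts at base 266 of 269 and crosses the back-splice, so its bases are adjacent only in the circle. Matches over the junction were found in 2 of the 1247 others. Among all matched circRNAs within 20% of its spliced length the match was in 3.03% for SMARCA5, 8.40% for CDYL and 9.52% for AFF1. A match of letters is a description, and binding was not measured.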

How the data were processed

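Ribosomal RNA was removed from SW620 total RNA and linear RNA digested with RNase R before fragmentation and amplification, per the labels' protocols. The submitters' processing notes list GRCh38, FastQC and HISAT2 2.1.0 but not what each was used for. The circRNA caller is not given in the sources used here. The values the authors deposited are headed TPM, but they are CPM: dividing by 1 step per library (10989 CPM in the control, 86.4 in HD-SB) made 100% of listed values whole within 0.01, which gave the reads. The value 0.001 was read as not listed.

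The members and lists were chosen with earlier results of these data known. No test across circRNAs and no p-value is given with 1 library per group. The pseudocount was the 5th percentile of listed values and the filter the median of means. Each circRNA with control reads, the 3 of most HD-SB reads per family and all circles of hosts with several were named, as were the 6 of most reads in the wider list, of which 1 is not reported here. The remaining members were added so that all are accounted for. Exons were taken from the matched GENCODE 29 transcript, protein-coding, basic and principal models first, and older symbols through RefSeq synonyms (GRCh38.p14). The steps were tested on simulated data and run in Python 3.11.15 with scipy 1.17.1 and pandas 2.3.3. Alternatives covered host names, SMARCA5, circBase entries, unlisted reads, pseudocount, filter and scaling.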

Additional observations from a re-analysis of the deposited data

How the results depend on the processing

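Of 60 alternatives over 13 results, 43 left the value within its interval or within 1.5 times a count. Leaving out the SMARCA5 circle gave 2.07% of HD-SB reads for the group and 0.493% for remodellers. Remodellers were 1.48% among circRNAs with a circBase identifier and 1.02% by number of circRNAs, and writers were 0.678% by number. These class shifts follow from what each setting counts. By number every circle counts once, so the 88 reads of SMARCA5 weigh as 1 circle. With circBase entries alone, the total of reads that shares are taken of falls as well. With 1 read for circRNAs not listed, the control share was 3.43%, through the added reads. The count at least 2-fold higher was 43 with no filter, 8 with the stricter filter and 5 with a pseudocount 4 times larger. The count lower was 2 under median-ratio scaling. These counts have no share over all circRNAs at the same setting beside them, so nothing about the group is read from them. The median log2 ratio was 0.81 with the pseudocount 4 times larger, 3.70 with it 4 times smaller and 1.58 with no filter. Median-ratio scaling put CDYL at 0.041 and PHF21A at 0.18, which follows from its construction, as circRNAs of both libraries set its factor, and bears on neither direction. The wider list without its ATXN7 circle, an alternative chosen after seeing the data, held 3.23% of HD-SB reads. The median span weighted by reads was 4771 bp. The 91 control reads limit every comparison. No paired analysis was possible because there is just 1 library in each group.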
